A study of Mus musculus with 2 samples.

Results

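The let-7 miRNAs and their close relative miR-98 were measured in microvesicles (MVs) shed by mouse mesenchymal stem cells (MSCs). Of the 831 mouse miRNA entries deposited for the arrays, 17 belong to this family. They were selected by name, as every entry with a name that starts with mmu-let-7 or has the stem mmu-miR-98, and no intensity entered this rule. The family itself was picked with its ratios on these arrays already known, so its values are given as a description and carry no test. Of the 17 entries, 9 are guide (-5p) arms and 8 are passenger (-3p) arms, and none was removed here by a filter on low values. The passengers let-7e-3p, let-7f-2-3p and let-7g-3p and the family names let-7j and let-7k are not among the 831 entries. How the 831 were chosen is not given in the sources used here.

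The MSCs came from the bone marrow of 4-week-old male C57BL/6 mice and were used at passage 3. EPO-MVs were collected from the medium of cells given 100 IU/ml erythropoietin (EPO) for 48 h, and MSC-MVs from cells kept for 48 h without it. Both media held 10% fetal bovine serum while the vesicles were released. The study lists this serum as a limitation, and its part in the values below was not tested. Each group is 1 array (miRCURY LNA, probes with locked nucleic acids), so an effect of the array and an effect of EPO cannot be told apart, and no ratio below has a replicate error or a p-value. How many mice or cultures stand behind each array is not given in the sources used here.

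As a check of the labelled source, all 8 miRNAs of a stromal list (miR-21a-5p, miR-22-3p, miR-31-5p and miRNAs of the miR-143/145 and miR-199/214 genes) were listed on both arrays, with intensities that summed to 211 for EPO-MVs and 270 for MSC-MVs. A blood cell list of 7 miRNAs was listed as well, some under older names, and summed to 67.6 and 80.0. In that list miR-142-3p, found in cells of the blood lineages, read 44.0 for EPO-MVs against 48.9 for MSC-MVs, and miR-223-3p, a myeloid miRNA, 13.6 against 20.7. Another 3 of the 7 went the other way, with ratios of EPO-MV over MSC-MV above 1. These were 1.75 for miR-144-3p (0.340 and 0.195), 1.36 for miR-150-5p, a lymphocyte miRNA, and 1.34 for miR-486-5p. The ratio was 0.902 for miR-451a (3.87 and 4.28) and 0.921 for miR-142-5p (4.80 and 5.21). Of an epithelial list, 5 of 6 markers were listed, with sums of 0.355 and 0.246, and the endothelial pair miR-126a summed to 0.189 and 0.324. No listed marker was at the smallest value of an array. Since probes differ in how brightly they bind, the sums do not rank the lists, and they do not tell which cells the vesicles came from.

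A miRNA gene is transcribed as a hairpin whose stem is cut into a short duplex. One strand, the guide, is usually kept by Argonaute and pairs with target mRNAs through its seed (bases 2 to 8), while the other, the passenger, is mostly discarded. The let-7 guides accumulate as cells differentiate, repress growth genes such as Ras, Myc and Hmga2, and are held back in stem cells by the RNA-binding proteins Lin28a and Lin28b. In the kidney and other tissues let-7 is also known to repress the TGF-β receptor TGFBR1 and collagens.

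The hairpin of miR-98 shows how the arms lie. In the RefSeq entry for Mir98 (GRCm38.p6, chrX:151913214-151913321, plus strand, 108 bases), the capitals mark the guide at bases 16 to 37 and the passenger at bases 74 to 95.

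Mir98 hairpin: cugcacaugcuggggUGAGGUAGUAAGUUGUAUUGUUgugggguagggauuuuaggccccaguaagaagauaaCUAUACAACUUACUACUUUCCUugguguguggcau

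The guide sequences are given because the 9 members are near copies of each other and share the seed GAGGUAG, in capitals. They are ordered by the intensity in EPO-MVs divided by that in MSC-MVs, the lowest first. All 17 entries were matched by name to the RefSeq miRNA table of GRCm38.p6.
mmu-let-7f-5p: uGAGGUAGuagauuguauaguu
mmu-let-7d-5p: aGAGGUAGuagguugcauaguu
mmu-let-7a-5p: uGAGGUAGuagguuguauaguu
mmu-miR-98-5p: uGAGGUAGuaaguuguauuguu
mmu-let-7b-5p: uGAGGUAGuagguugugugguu
mmu-let-7e-5p: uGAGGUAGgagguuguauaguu
mmu-let-7c-5p: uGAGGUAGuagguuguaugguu
mmu-let-7g-5p: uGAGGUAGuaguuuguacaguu
mmu-let-7i-5p: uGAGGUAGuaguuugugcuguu

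The passenger sequences are given because, unlike the guides, they fall into several seeds. The first 4 below share the seed UAUACAA, and each of the other 4 has a seed of its own. The names let-7a-1-3p and let-7c-2-3p stand on 1 entry and have the same sequence.
mmu-let-7f-1-3p: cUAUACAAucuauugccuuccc
mmu-miR-98-3p: cUAUACAAcuuacuacuuuccu
mmu-let-7a-1-3p/mmu-let-7c-2-3p: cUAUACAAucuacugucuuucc
mmu-let-7b-3p: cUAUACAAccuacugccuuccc
mmu-let-7c-1-3p: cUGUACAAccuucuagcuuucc
mmu-let-7i-3p: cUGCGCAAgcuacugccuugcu
mmu-let-7a-2-3p: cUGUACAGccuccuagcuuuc
mmu-let-7d-3p: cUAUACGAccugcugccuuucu

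All 9 guides were lower in EPO-MVs than in MSC-MVs. The values below are the deposited normalized intensities, which have no physical unit, and the ratio is EPO-MV over MSC-MV. A ratio at or below the inverse of 1.5 is called lower and one of 1.5 or more is called higher, after the fold change filter of the study. By this rule 2 of the 9 guides, let-7f-5p and let-7d-5p, were lower and 0 were higher. Over all 831 entries, 7.58% were lower and 17.8% were higher.

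The lowest guide ratio was that of let-7f-5p, a guide made from genes on chromosomes 13 and X. Its intensity was 2.72 in EPO-MVs and 4.71 in MSC-MVs, a ratio of 0.578. Among the 208 brightest entries by mean log2 intensity, 4 had a ratio this low or lower, let-7f-5p among them.

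The next guide was let-7d-5p, the only member whose sequence starts with A. It had 5.94 in EPO-MVs and 8.98 in MSC-MVs, a ratio of 0.662, just inside the threshold. Just outside it was let-7a-5p, identical in sequence to the founding let-7 of the nematode, with 4.36 and 6.33 and a ratio of 0.689. These 2 neighbours in the order lie on either side of a threshold but were only 0.06 apart on the log2 scale.

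Among the remaining guides, miR-98-5p, encoded beside let-7f-2 on the X chromosome, had 5.04 in EPO-MVs and 6.98 in MSC-MVs (ratio 0.723). For let-7b-5p the intensities were 4.08 and 5.40 (ratio 0.756), for let-7e-5p 3.21 and 4.10 (ratio 0.782), and for let-7c-5p 4.75 and 5.98 (ratio 0.794). These 4 guides lay between the pair above and the pair below, short of the 1.5-fold call.

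The 2 guides from genes that stand alone in the genome had the highest ratios. For let-7g-5p the intensities were 13.4 in EPO-MVs and 16.1 in MSC-MVs (ratio 0.832). For let-7i-5p they were 3.01 and 3.52 (ratio 0.854). Since probes differ in how brightly they bind, the intensities of different members do not rank their abundance, and only the ratio of a member to itself is compared.

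**Figure D1:**
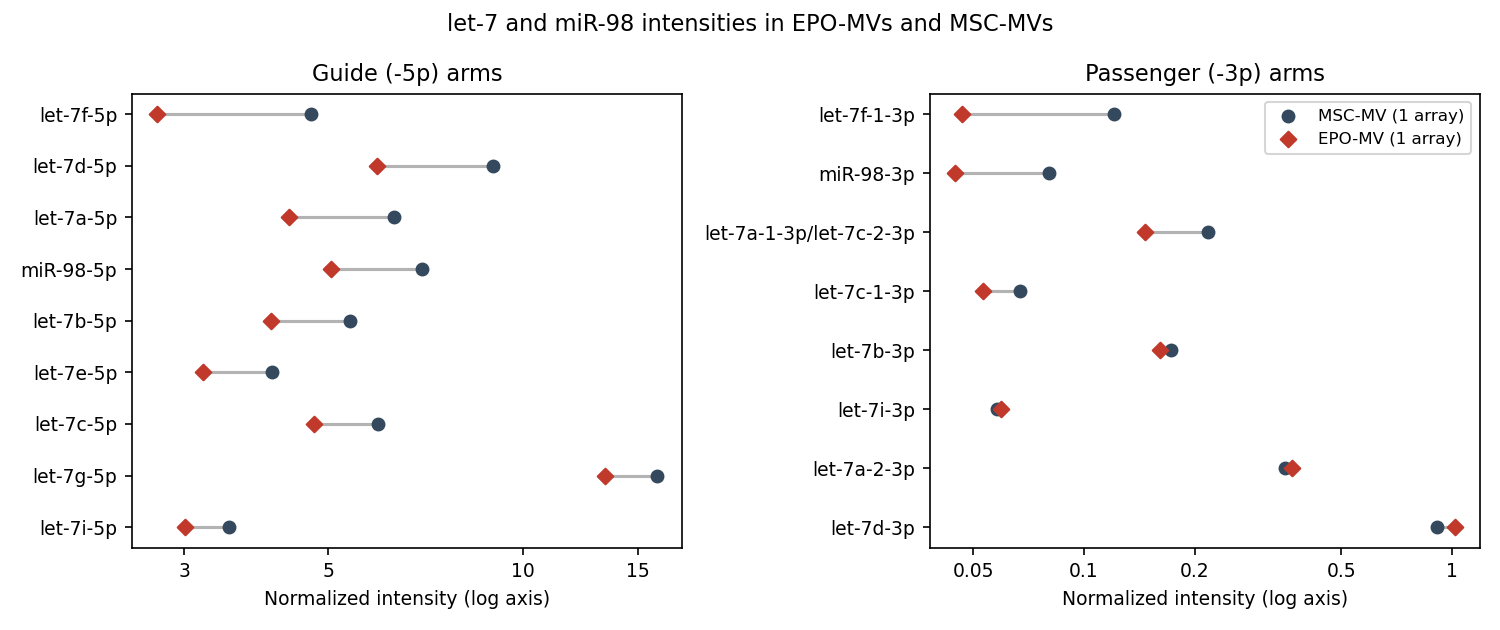
Normalized intensity (log axis, no physical unit) of each guide arm (left) and passenger arm (right) on the EPO-MV array (diamonds) and the MSC-MV array (circles), 1 array each, ordered by ratio. All 9 guides lie lower in EPO-MVs, while 5 of the 8 passengers do.

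Summed over the 9 guides, the intensity was 46.5 in EPO-MVs and 62.1 in MSC-MVs. This was 2.37% of the summed intensity of the EPO-MV array and 2.89% of that of the MSC-MV array. In the stromal list above all 8 miRNAs had a ratio below 1, compared with 43.9% of all entries and 63.0% of the 208 brightest, and miR-143-3p (0.648) alone was lower by the 1.5-fold rule. The ratio of its sum was 0.782, against 0.749 for the sum of the guides. In the blood cell list 4 of 7 were below 1, and the ratio of its sum was 0.846. The endothelial pair had 2 of 2 below 1 and a ratio of 0.583 for its sum, and the epithelial list had 1 of 5 below 1 and a ratio of 1.44. The epithelial entries were dim, at 6 to 68 times the smallest value of their array. By the 1.5-fold rule miR-200b-3p (1.50), miR-200c-3p (2.85) and miR-141-3p (1.90) were higher, and miR-429-3p (0.712) and miR-205-5p (1.10) were not called. Both endothelial entries were lower (0.589 and 0.556). In the blood cell list miR-223-3p (0.659) was lower, miR-144-3p (1.75) was higher and the rest were not called. Over all entries 7.58% were lower and 17.8% were higher. Fewer vesicles of a type and less miRNA per vesicle cannot be told apart in such RNA, and the part of these other miRNAs in the let-7 values was not tested.

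All 9 guides are among the 208 brightest entries, where ratios were lower in general, so the guides are read beside these. Of the 208, 63.0% had a ratio below 1, compared with 9 of the 9 guides. In the same set 7.69% of the entries were lower by 1.5-fold and 0.962% were higher. The median log2 ratio was -0.40 for the guides and -0.09 for the 208 brightest entries. Restricted to the 80 of these whose names end in -5p, it was -0.16.

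Entries as bright as the guides gave a similar background. Of the 69 entries within the intensity range of the guides, which include the guides, 50 had a ratio below 1, and their median log2 ratio was -0.18. The guides also lay closer together than their surroundings, with a standard deviation of the log2 ratio of 0.18 across the 9 members and of 0.30 across the 208 brightest entries. The members are related sequences on the same pair of arrays and not replicates of each other.

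**Figure D2:**
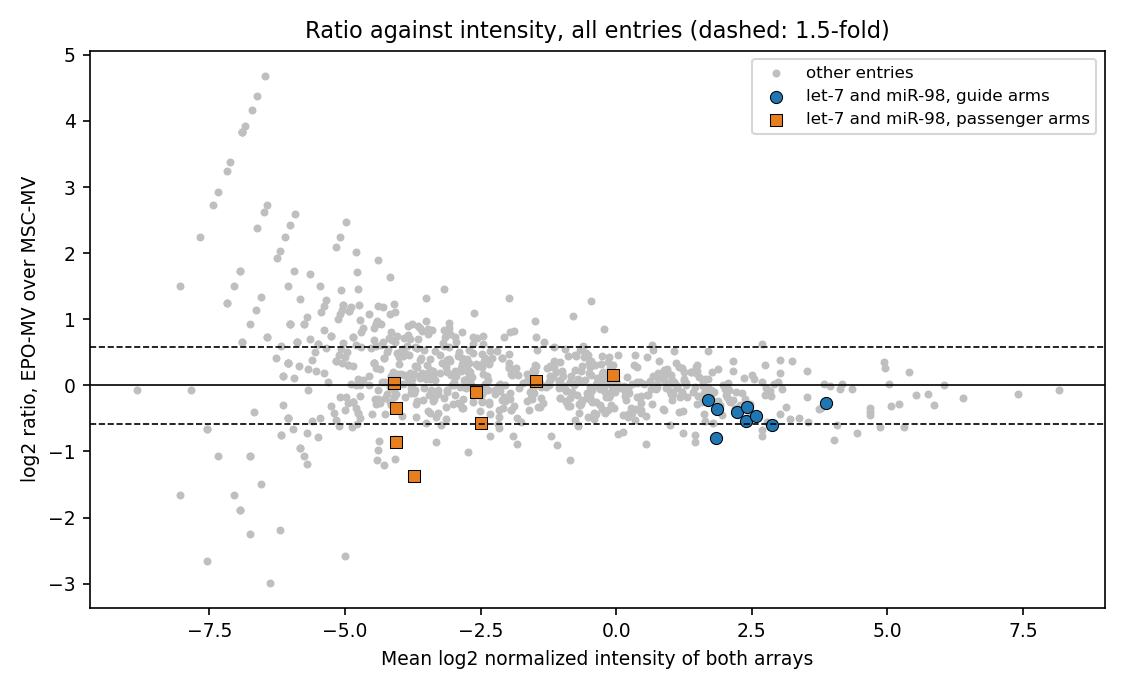
Log2 ratio of intensities, EPO-MV over MSC-MV, against mean log2 intensity for all 831 entries (grey), with the guides (circles) and passengers (squares) of let-7 and miR-98 and the 1.5-fold limits (dashed). The guides lie together below 0 at high intensity, with a median of -0.40, and the passengers are spread from -1.37 to 0.16 at low to middle intensity.

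Sequence differences between guides were small, and the ratios of near copies were not identical. The guides vary at 8 of their 22 positions, counted from the 5′ end, and outside the first base none of these lies in the first 8. Of the 36 pairs of guides, 4 differ by 1 base. How far the probes tell such copies apart was not tested, so the members of such a pair are uncertain as separate values.

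The largest gap among these pairs was between let-7a-5p and let-7f-5p (G12A), whose log2 ratios differed by 0.25. The pair of let-7a-5p and let-7c-5p (A19G) differed by 0.21, and let-7a-5p and let-7e-5p (U9G) by 0.18. The ratios of let-7b-5p and let-7c-5p (G17A) differed by 0.07. By comparison, let-7a-5p and let-7d-5p differ at 2 bases (U1A, U16C), and their log2 ratios were 0.06 apart.

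Base composition did not order the guides closely. The lowest count of G and C, 7 of 22 bases, was shared by let-7f-5p with the lowest ratio and miR-98-5p with the fourth lowest. The highest count, 10, was that of let-7b-5p in the middle of the order. Across the 9 guides, which share both arrays, the Spearman correlation of the log2 ratio was 0.39 with the count of G and C and -0.05 with mean log2 intensity. Both are given as descriptions.

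The passengers, the strands that are mostly discarded, did not move as one group. By the same rule 2 of the 8, let-7f-1-3p and miR-98-3p, were lower in EPO-MVs and 0 were higher, and 5 of the 8 had a ratio below 1. Their median log2 ratio was -0.22. Over all 831 entries 43.9% had a ratio below 1. Among the 399 entries within the intensity range of the passengers, 40.4% had a ratio below 1, 4.01% were lower and 11.8% were higher, with a median log2 ratio of 0.08.

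Most passengers were dim, so their values are also given in steps. Every value of an array is a whole multiple of its smallest value, called a step here. The guides had between 1282 and 7184 steps, and the passengers between 21 and 479.

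The lowest ratio of the family was that of let-7f-1-3p, the passenger of the let-7f-1 hairpin. On the EPO-MV array it read 0.0467 (22 steps) and on the MSC-MV array 0.121 (54 steps), a ratio of 0.387. For miR-98-3p the intensities were 0.0446 (21 steps) and 0.0805 (36 steps), a ratio of 0.554. Both rest on fewer than 60 steps on each array.

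The shared entry of let-7a-1-3p and let-7c-2-3p lay just outside the threshold, at 0.146 (69 steps) for EPO-MVs against 0.217 (97 steps) for MSC-MVs, with a ratio of 0.675. For let-7c-1-3p the intensities were 0.0531 (25 steps) and 0.0671 (30 steps), a ratio of 0.791. For let-7b-3p they were 0.161 (76 steps) and 0.172 (77 steps), a ratio of 0.937. The last of these differed by a single step before the arrays were scaled.

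The other 3 passengers were slightly above their MSC-MV value. For let-7i-3p the intensities were 0.0594 (28 steps) and 0.0582 (26 steps), a ratio of 1.02, and for let-7a-2-3p they were 0.367 (173 steps) and 0.351 (157 steps), a ratio of 1.05. The brightest passenger entry, let-7d-3p, read 1.02 (479 steps) for EPO-MVs against 0.911 (407 steps) for MSC-MVs, a ratio of 1.12. Nothing in this group came near 1.5-fold.

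Grouped by the seeds printed above, the 4 passengers with UAUACAA all had ratios below 1, from 0.387 to 0.937, with a median log2 ratio of -0.71. The 4 passengers with other seeds had ratios from 0.791 to 1.12 and a median log2 ratio of 0.05, and 3 of them were above 1. This grouping was made after the values were seen. The UAUACAA passengers had 21 to 97 steps. In the other group let-7c-1-3p and let-7i-3p had 25 to 30, and let-7a-2-3p and let-7d-3p 157 to 479. The part of brightness was not tested.

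Within a hairpin the arms went together in some genes and apart in others. Of the 8 pairs of guide and passenger that single RefSeq genes link, 6 had both arms below a ratio of 1, and in the pairs of let-7d and let-7i the guide was below 1 and the passenger above it. The let-7c guide and the shared passenger entry stand in 2 of these pairs each. The let-7a-2 hairpin was not counted among the 8. With let-7a-5p as its guide it is another pair with the guide below 1 and the passenger above it. Among 202 pairs from other hairpins, both arms were below 1 in 51 and the -5p arm alone in 52. Where the -5p arm was among the 208 brightest entries, as every let-7 guide was, the numbers were 20 and 16 of 51 hairpins.

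Among the let-7 and miR-98 pairs, the widest opposite movement was in let-7d, where the log2 ratio was -0.60 for the guide and 0.16 for the passenger. In let-7f-1 both arms were lower by the 1.5-fold rule, at -0.79 and -1.37. In let-7c-1 the arms had nearly the same log2 ratio, -0.33 and -0.34, although the passenger rests on 25 and 30 steps. For let-7a-2 the guide, which cannot be separated from that of let-7a-1, was at -0.54 and the passenger at 0.06.

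By genome position, the 3 guides with the lowest ratios were those of one cluster. On chromosome 13, let-7a-1 (guide at chr13:48538239-48538260, minus strand, GRCm38.p6), let-7f-1 (chr13:48537889-48537910) and let-7d (chr13:48536078-48536099) lie side by side on the same strand. Their guides had ratios of 0.689, 0.578 and 0.662, and their passengers 0.675, 0.387 and 1.12. The guides of let-7a and let-7f are also made from other genes, so the cluster cannot be credited with their full values, while let-7d comes from this cluster alone in the RefSeq table.

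The X-linked pair, let-7f-2 (guide at chrX:151912353-151912374, plus strand) and miR-98 (chrX:151913229-151913250), lies within Huwe1, a ubiquitin ligase gene. Its guides had ratios of 0.578 and 0.723, and miR-98-3p, the one passenger of the pair among the 831 entries, 0.554. On chromosome 15, let-7c-2 (chr15:85706616-85706637, plus strand) and let-7b (chr15:85707325-85707346) overlap the long noncoding RNA gene Lncppara, and their guides had ratios of 0.794 and 0.756. With the deposited values the X-linked guides were both below those on chromosome 15, again with let-7f and let-7c counted in more than one place. Under quantile normalization this order did not hold, with 0.853 for miR-98-5p and 0.835 for let-7b-5p.

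The genes that stand alone are let-7g (chr9:106178846-106178867, plus strand), within Wdr82, and let-7i (chr10:122985698-122985719, minus strand), which overlaps no other gene of the annotation. Their guides had the smallest differences, with ratios of 0.832 and 0.854. The passenger of let-7i was at 1.02.

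Another 3 clusters join a let-7 gene to a member of the miR-99/100 family and a member of the miR-125 family, and these partners were read on the same arrays. All 5 of their -5p entries were below a ratio of 1 and 4 of their 5 -3p entries were above it. All 5 of the -5p entries are among the 208 brightest entries, where 56 of 80 -5p entries were below 1, and 198 of all 349 -3p entries were above 1, so these counts are near the background. By the 1.5-fold rule 1 of the 10 partner entries was lower and 0 were higher, against 7.58% and 17.8% of all entries. Their median log2 ratio was -0.28 for the -5p arms and 0.14 for the -3p arms.

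On chromosome 9, the cluster with let-7a-2, within the noncoding host gene Mir100hg, had guide ratios of 0.599 for miR-100-5p (0.796 in EPO-MVs and 1.33 in MSC-MVs), 0.689 for let-7a-5p and 0.822 for miR-125b-5p (33.6 and 40.9). On chromosome 16, the cluster with let-7c-1 (guide at chr16:77599672-77599693, plus strand) had 0.693 for miR-99a-5p (1.06 and 1.53), 0.794 for let-7c-5p and 0.822 for miR-125b-5p. In both clusters the miR-99/100 member had the lowest and the miR-125 member the highest ratio. The value of miR-125b-5p is the same one in both, since the genes give the same guide.

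The cluster on chromosome 17, with let-7e (guide at chr17:17830366-17830387, plus strand) and overlapping Spaca6, had another order. Here let-7e-5p was lowest at 0.782, followed by miR-99b-5p at 0.914 (1.94 and 2.12) and miR-125a-5p at 0.959 (3.93 and 4.10). The -5p arms of the let-7e partners thus stayed closer to 1 than those of the let-7a-2 and let-7c-1 partners. No replicate is at hand to say whether the orders differ beyond error.

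**Figure D3:**
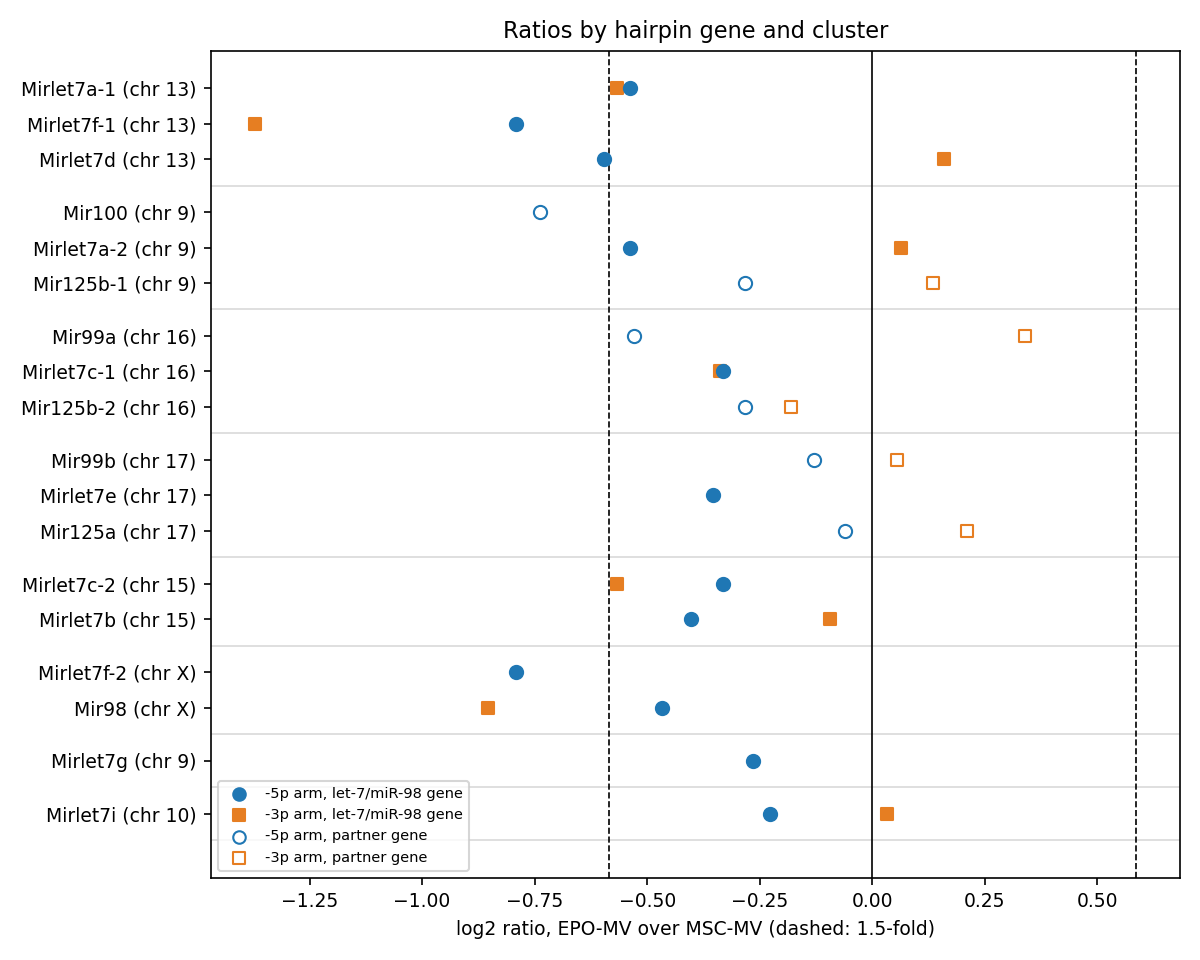
Log2 ratio of intensities, EPO-MV over MSC-MV, for the -5p arm (circles) and -3p arm (squares) of each hairpin gene, grouped by cluster, with let-7 and miR-98 genes filled and partner genes empty; a guide made by several genes is drawn at each. Every -5p arm lies below 0, and the arms of Mirlet7d lie at -0.60 and 0.16.

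One entry outside the family has the same bases 2 to 8 as the guides, miR-1961, matched by name to the RefSeq table like 680 of the 831 entries. Its sequence is shown because it matches let-7g-5p and let-7i-5p over its first 13 bases and is shorter.
mmu-miR-1961: uGAGGUAGuaguuagaa
Its intensity was 1.13 in EPO-MVs and 1.23 in MSC-MVs, a ratio of 0.921. This ratio was closer to 1 than that of any of the 9 guides.

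The direction of the guides held in every scaling tried and with the pseudocount, and the size of their differences did not. The step minimums, the cut at the median intensity and the removal of entries with several names dropped other entries alone. They leave every guide ratio as deposited, so they are no check of it. Under the settings that re-scaled the values or added a pseudocount, all 9 guides stayed below a ratio of 1. The lowest guide ratio ranged from 0.558 to 0.622, each time that of let-7f-5p, which kept its 1.5-fold call in all of them. The highest ranged from 0.825 to 0.969, so that let-7g-5p was close to 1 under quantile normalization. The call of let-7d-5p was lost when the ratios were centred on the median of the 415 brighter entries (0.680), when the arrays were scaled to their 75th percentile (0.687), and under quantile normalization (0.740) and lowess (0.738). Centred on the median of all entries, let-7a-5p joined the lower guides at 0.665.

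Passengers depended more on how dim entries were treated. The ratio of let-7f-1-3p ranged from 0.326 to 0.584 and that of miR-98-3p from 0.458 to 0.739. Both were left out when at least 30 steps were required on both arrays, which kept 4 of the 8 passengers. The shared entry of let-7a-1-3p and let-7c-2-3p, just outside the threshold with the deposited values, was called lower when the ratios were centred on the median of all entries (0.652), under quantile normalization (0.629) and under lowess (0.628). The dimmer let-7c-1-3p was called lower under quantile normalization (0.656) and lowess (0.653). For let-7i-3p, at 1.02 with the deposited values, the direction turned under some settings, with 0.834 as the lowest ratio.

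**Figure D4:**
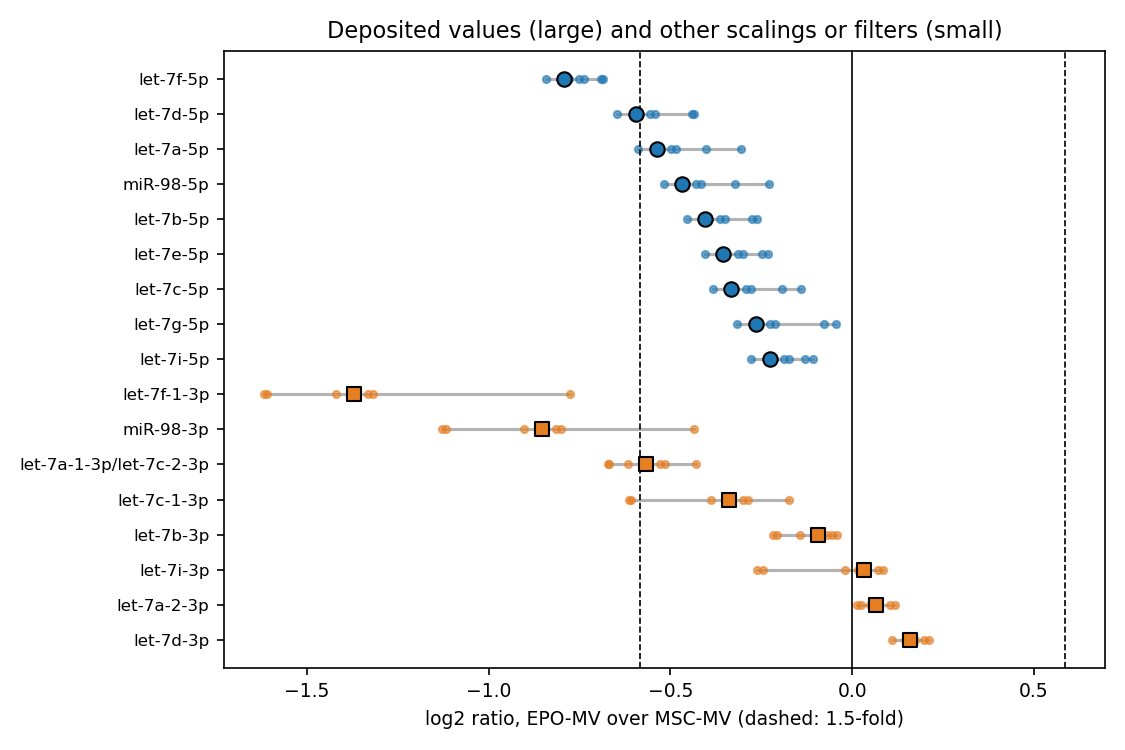
Log2 ratio of intensities, EPO-MV over MSC-MV, of each of the 17 entries with the deposited values (large symbols) and under the other scalings and filters that kept the entry (small symbols), with guides as circles, passengers as squares and the 1.5-fold limits dashed. The guides stay below 0 throughout, and the dim passengers let-7f-1-3p and miR-98-3p move most.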

How the data were processed

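RNA of the EPO-MVs and of the MSC-MVs, collected by centrifugation at 3000 g and 100000 g, was labelled with Hy3 per the sample labels. It was hybridized to the miRCURY LNA Array (version 18.0), 1 array for each group. The authors read the spots with GenePix Pro 6.0, averaged replicate spots, and divided by a median normalization factor from the miRNAs that reached an intensity of 30 in all samples. The deposited values are these normalized intensities, on a linear scale. Channel, background correction and the choice of the 831 entries are not given in the sources used here. Whole multiples were tested with a tolerance of 0.0001 of a step (471 steps to an intensity of 1 for EPO-MVs, 447 for MSC-MVs).

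Ratios were taken without a pseudocount or filter and called at 1.5-fold; with 1 array per group no test was made, and the number of arrays limits the precision. All let-7 and miR-98 entries, the miR-99/100/125 partners and entries sharing the guide seed are named. Members, lists and rules were chosen with earlier results of these data known. Gene neighbours came from RefSeq (GRCm38.p6); the deposited values name no build. The 12 alternatives were thresholds of 2 and 1.2, re-centring on all or on the brighter 415 entries, scaling to the 75th percentile, quantile normalization, lowess (span 0.4, 3 iterations), a pseudocount at the 25th percentile (0.0573), minimums of 30 and 60 steps, entries above the median intensity, and removal of entries with several names. Counting was tested on simulated data. The software was matplotlib 3.10.9, numpy 2.4.6, pandas 2.3.3, statsmodels 0.14.6 and scipy 1.17.1 under Python 3.11.15.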

Additional observations from a re-analysis of the deposited data

How the results depend on the processing

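Why the values below moved was not tested, beyond what a threshold or filter sets by itself. The deposited values gave 2 lower guides. At a threshold of 2 this was 0, and at a threshold of 1.2 it was 8. It was 3 after re-centring on all entries, and 1 after re-centring on the 415 brighter entries, scaling to the 75th percentile, quantile normalization and lowess. The median log2 ratio of the guides, -0.40, moved to -0.23 with quantile normalization and -0.28 with lowess, and by under 0.1 otherwise. No guide and no passenger was 1.5-fold higher under any of the 12 alternatives. The share of the guides in the summed intensity moved by under 10% of itself on both arrays wherever it was computed.

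Of the passengers, 2 were lower with the deposited values. At thresholds of 2 and 1.2 the numbers were 1 and 4. It was 3 after re-centring on all entries, 4 with quantile normalization and with lowess, 1 with the pseudocount, and 0 with at least 30 steps, with at least 60 steps and above the median intensity, filters that left 4, 4 and 2 passengers. Their median log2 ratio, -0.22, was -0.44 with quantile normalization, -0.43 with lowess, -0.015 with either step minimum and -0.094 without entries of several names. It reversed to 0.11 above the median intensity, where let-7a-2-3p and let-7d-3p alone were left. No single entry changed from a lower to a higher call.

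The deposited values hold no background reading, so no entry is called above background. No paired analysis was possible because there was 1 array in each group.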
